A study of Mus musculus with 6 samples.

Results

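The 9 genes described here are cytochrome P450 genes of the 1a and 3a subfamilies that were measured in mouse liver, namely *Cyp1a1*, *Cyp1a2*, *Cyp3a11*, *Cyp3a13*, *Cyp3a16*, *Cyp3a25*, *Cyp3a41a*, *Cyp3a44* and *Cyp3a59*. They were taken by symbol from a table of 24421 genes, and all 9 symbols were found in it. Hepatic mRNA was sequenced from 3 wild-type (WT) mice and 3 mice heterozygous for a null allele of *Pai-1* (*Pai-1*+/-). The labels give all 6 animals as C57BL/6 mice fed ad lib and aged 21 weeks, and name a sex, male, for the WT animals only. The study's own text gives a slightly younger age and describes both genotypes as male littermates of C57BL/6J background on standard chow, the heterozygotes coming from matings of *Pai-1*-/- with WT mice. The livers were flushed with saline before collection.

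Only levels averaged over both genotypes are given. The table of whole-number counts has 6 columns headed by numbers that match no sample label, so none of them was given a genotype, and the value used is the authors' mean of the normalized counts over all libraries. That mean carries no spread between mice and no total per library. A difference between WT and *Pai-1*+/- mice therefore could not be tested for any of the 9 genes, and whether neighbouring genes in the order of levels differ beyond the variation between animals was not tested. In pieces of whole liver, fewer cells of a type and less RNA per cell cannot be told apart.

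Cytochrome P450 enzymes are heme proteins of the endoplasmic reticulum that insert oxygen into drugs, steroids and other lipophilic molecules, with electrons passed from NADPH by cytochrome P450 reductase. The 1a enzymes are best known for oxidation of planar aromatic compounds and are induced through the aryl hydrocarbon receptor, a ligand-activated transcription factor that pairs with Arnt. The 3a enzymes metabolize a large share of drugs, bile acids and steroids in liver and gut, and their genes are induced through the pregnane X receptor (Nr1i2) and the constitutive androstane receptor (Nr1i3). In mouse liver several 3a genes differ between the sexes or between fetal and adult life.

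The part of the protein that holds the heme is among the most conserved stretches of the family, and its coding bases show how alike the members are. The bases below encode the heme-binding signature of each gene, read 5′ to 3′ from the coding transcripts of GENCODE M21 on GRCm38 (mm10), and the capitals mark the codon of the cysteine that binds the heme iron.
Cyp1a1, chr9:57702664-57702693, plus strand: tttggtttgggcaagcgaaagTGCatcgga
Cyp1a2, chr9:57677396-57677425, minus strand: ttcggcttgggaaagcgccggTGCattggg
Cyp3a11, chr5:145858805-145858834, minus strand: tttgggaatggacccaggaacTGCcttggc
Cyp3a16, chr5:145440441-145440470, minus strand: tttgggaatggacccaggaacTGCattggc
Cyp3a41a, chr5:145698221-145698250, minus strand: tttggaattggacccaggaacTGCattggc
Cyp3a44, chr5:145778005-145778034, minus strand: tttggaattggacccaggaacTGCattggc
Cyp3a25, chr5:145981468-145981497, minus strand: tttggaaatggacccaggaacTGCataggc
Cyp3a59, chr5:146109092-146109121, plus strand: tttggaaatggacccaggaacTGCctagac
Cyp3a13, chr5:137895267-137895296, minus strand: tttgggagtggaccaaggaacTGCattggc
The signature lay in exon 12 of 13 in each of the 7 *Cyp3a* members and in exon 7 of 7 in both *Cyp1a* members. *Cyp3a41a* and *Cyp3a44* had identical bases over the 30 positions. *Cyp3a59* was the only one of the 9 genes whose last codon did not match the family pattern. Counted from 1 at the 5′ end of the 30 bases, *Cyp3a59* differed from *Cyp3a25* by A25C and G29A, and the second of these lies in that last codon.

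The 9 genes fell into a group of 5 with high levels and a group of 4 with low levels. *Cyp3a11* (ENSMUSG00000056035 in GENCODE), the main drug-inducible 3a gene of adult mouse liver, had a mean of 142296 normalized counts, which is 50784 per kilobase of its longest annotated transcript of 2802 bases. *Cyp3a25* (ENSMUSG00000029630) followed with a mean of 34661 normalized counts and a level of 17330 per kilobase. The other members are compared on the same scale, the mean normalized count per kilobase of the longest transcript, since a longer transcript yields more fragments.

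*Cyp1a2* (ENSMUSG00000032310), the constitutive hepatic member of the 1a subfamily and a major enzyme of caffeine metabolism, came after them with 13818 normalized counts and 7122 per kilobase. *Cyp3a13* (ENSMUSG00000029727), a 3a gene expressed in liver and intestine, had nearly the same mean of 13111 normalized counts, and with its longer transcript of 2956 bases its level was 4435 per kilobase. *Cyp3a59* (ENSMUSG00000061292) had 2707 normalized counts and 1360 per kilobase. All 5 had a mean above 1000 normalized counts. Among the 16954 genes with a level above 0 and a length, 99.8% lay below *Cyp3a11* on the per-kilobase scale, 99.4% below *Cyp3a25*, 98.6% below *Cyp1a2*, 97.7% below *Cyp3a13* and 93.3% below *Cyp3a59*.

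The other 4 members each had a mean under 30 normalized counts, and their levels per kilobase were below the median over those genes, 53.8. *Cyp3a44* (ENSMUSG00000054417) had a mean of 27.9 normalized counts and a level of 14.2 per kilobase. *Cyp3a16* (ENSMUSG00000038656) had 17.1 normalized counts and 9.86 per kilobase. *Cyp3a41a* (ENSMUSG00000075551) had 2.51 normalized counts and 1.22 per kilobase. These 3 genes are known as *Cyp3a* genes of female or perinatal mouse liver, and 36.3%, 33.3% and 17.0% of ranked genes, respectively, lay below them. *Cyp1a1* (ENSMUSG00000032315), the 1a gene that is nearly silent until an aryl hydrocarbon receptor ligand is present, had 20.5 normalized counts and 7.59 per kilobase, with 31.1% of ranked genes below it. *Cyp3a41a* was the only one of the 9 genes whose mean did not exceed 10 normalized counts.

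**Figure D1:**
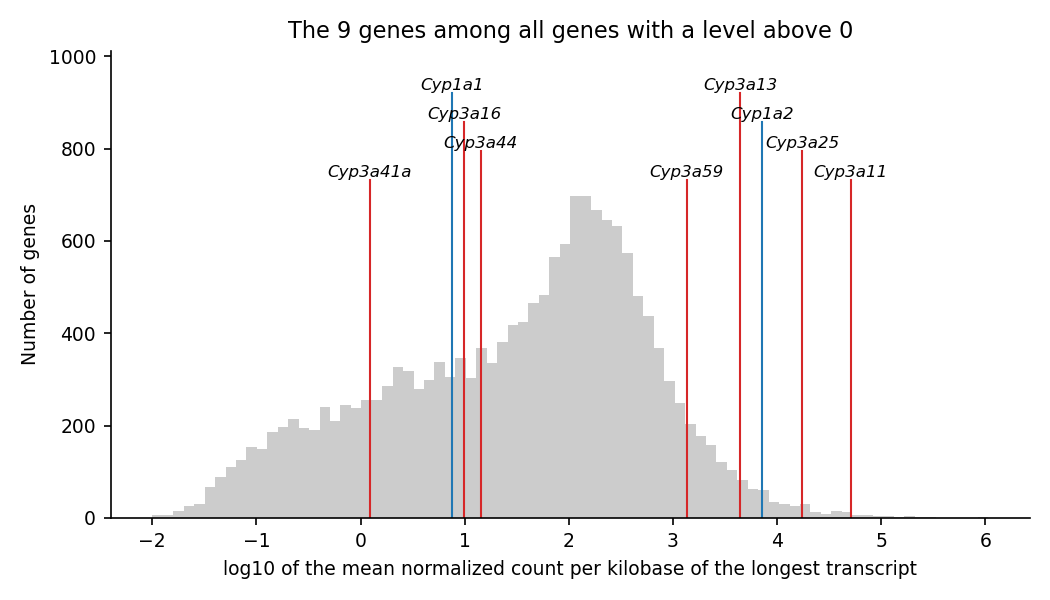
Histogram of log10 of the mean normalized count per kilobase of longest transcript for the 16954 genes with a level above 0, with vertical lines at the 9 genes (blue, *Cyp1a*; red, *Cyp3a*; line heights only separate the names). The 5 high members lie in the right tail, from 93.3% to 99.8% of genes below them, and the 4 low members lie left of the main peak, from 17.0% to 36.3%.

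The widest step in the order lay between *Cyp3a59* and *Cyp3a44*, where the level per kilobase differed 95.6-fold. The steps above it were 2.93-fold from *Cyp3a11* to *Cyp3a25*, 2.43-fold from *Cyp3a25* to *Cyp1a2*, 1.61-fold from *Cyp1a2* to *Cyp3a13* and 3.26-fold from *Cyp3a13* to *Cyp3a59*. Below it, *Cyp3a44* and *Cyp3a16* were 1.44-fold apart and *Cyp3a16* and *Cyp1a1* 1.30-fold apart. These ratios are given without an error, since no values per mouse were used. The order of *Cyp3a16* and *Cyp1a1* turned on the length used, as the mean of *Cyp1a1* was the higher of the pair before division by length. From *Cyp3a11* to *Cyp3a41a* the level per kilobase spanned 41603-fold with the longest transcripts and 1082-fold over the 75-base windows found in no other gene. The 4915 such windows of *Cyp3a11* include those of a transcript that retains an intron. Its level on that scale was 28951 per kilobase, so the smaller span does not come from shared sequence alone.

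**Figure D2:**
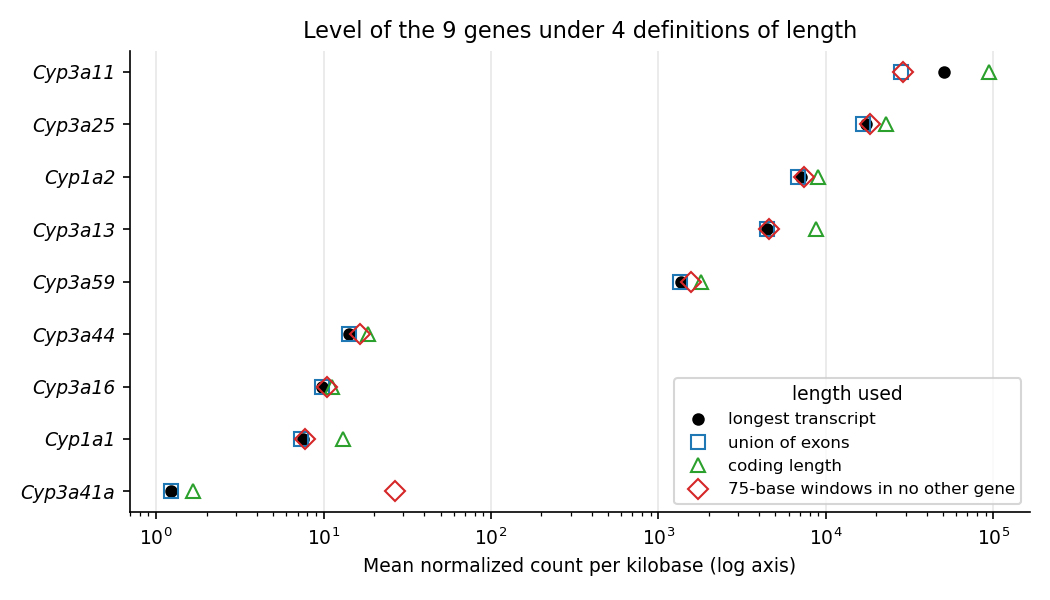
Mean normalized count per kilobase (log axis) of each of the 9 genes, computed with the longest transcript (black circles), the union of exons (blue squares), the coding length (green triangles) and the number of 75-base windows found in no other gene (red diamonds). The gap between *Cyp3a59* and *Cyp3a44* is present with every length, and the diamond of *Cyp3a41a* stands at 26.8 per kilobase against 1.22 for the longest transcript.

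Within the 3a subfamily nearly all of the transcript level came from 4 genes. *Cyp3a11* made up 68.7% of the sum of the 7 per-kilobase levels, *Cyp3a25* 23.4%, *Cyp3a13* 6.00% and *Cyp3a59* 1.84%. *Cyp3a16*, *Cyp3a41a* and *Cyp3a44* together made up 0.0342%. These shares were computed with the longest transcripts and depend on that choice. The level of *Cyp3a11* was 27940 per kilobase with the union of exons and 94111 with the coding length. In the 1a pair the level of *Cyp1a2* was 939 times that of *Cyp1a1*. The remaining *Cyp1* gene of the table, *Cyp1b1*, which is expressed mainly outside hepatocytes, was as low as *Cyp1a1*, with a level of 7.17 per kilobase.

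The members were next placed among all P450 genes of the table. Of the 94 *Cyp* genes with a level above 0 and a length, *Cyp3a11* ranked 3 per kilobase, after *Cyp2e1*, the ethanol-oxidizing P450, and *Cyp4a14*, a fatty acid hydroxylase. *Cyp3a25* ranked 8, *Cyp1a2* 17, *Cyp3a13* 21 and *Cyp3a59* 32. The low members ranked 62 (*Cyp3a44*), 66 (*Cyp3a16*), 70 (*Cyp1a1*) and 82 (*Cyp3a41a*). The 9 genes made up 14.0% of the summed P450 level per kilobase, with 8.79% from *Cyp3a11* alone and, for comparison, 32.5% from *Cyp2e1*. These shares, too, hold for the longest transcripts only. On the scale of normalized counts they held 0.688% of the sum over all genes.

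The extent of identical sequence shared with other genes varied widely among the members, and this bears on how far a read of 75 bases can be placed. Of all 75-base windows of the annotated transcripts of *Cyp3a41a*, 95.3% (1892 of 1986) also occurred in a transcript of another gene, 1809 of them in its near copy *Cyp3a41b*. *Cyp3a41b* itself was listed at 0. For *Cyp3a44* the share was 11.02%, for *Cyp3a59* 13.2% and for *Cyp3a25* 12.3%, the latter pair sharing 265 windows with each other. *Cyp1a1* and *Cyp1a2* shared 63 windows, which is 2.32% and 3.25% of theirs. *Cyp3a11* (1.66%) and *Cyp3a16* (1.63%) shared few, and *Cyp3a13* shared none.

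Genes listed at 0 were counted over the whole table by their share of windows found in other genes. Of 13692 protein-coding genes with no shared window, 16.7% were listed at 0, while of 205 genes with at least 95% of windows shared, 194 (94.6%) were. *Cyp3a41b* with 90.9% shared belongs to the class from 50% to under 95%, where 57.8% of 529 genes were listed at 0. Whether the genes of each class are expressed in liver was not looked at. These shares therefore cannot tell genes that are silent in liver from genes whose reads were not counted. How reads with several matches were counted is not given in the sources used here. With the 94 windows of *Cyp3a41a* found in no other gene as its length, its level was 26.8 per kilobase, 21.9 times the value from the longest transcript and the highest of the 4 low members. On that scale *Cyp3a44* stood at 16.6, *Cyp3a16* at 10.5 and *Cyp1a1* at 7.72 per kilobase. The level of *Cyp3a41a* is therefore uncertain relative to the other 3, while all 4 stayed below *Cyp3a59*, at 1559 per kilobase.

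**Figure D3:**
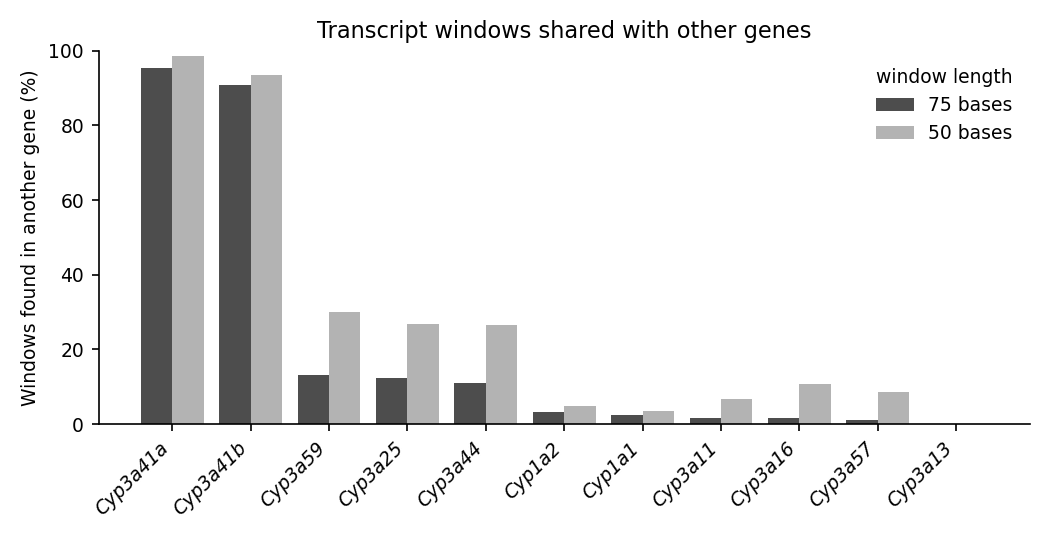
Percent of the windows of each gene's annotated transcripts that also occur in a transcript of another gene, for windows of 75 bases (dark bars) and 50 bases (light bars). *Cyp3a41a* and *Cyp3a41b* share over 90% of their windows, while *Cyp3a13* shares none at either length.

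The stretch of 75 bases around the heme signature in exon 12 shows what a single read can and cannot tell apart. The sequences below are from GENCODE M21 transcripts on GRCm38, and capitals mark bases that differ from *Cyp3a11*.
Cyp3a11, chr5:145858781-145858855, minus strand: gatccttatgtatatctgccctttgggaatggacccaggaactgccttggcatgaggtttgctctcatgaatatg
Cyp3a16, chr5:145440417-145440491, minus strand: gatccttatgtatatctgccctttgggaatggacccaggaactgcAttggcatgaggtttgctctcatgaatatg
Cyp3a44, chr5:145777981-145778055, minus strand: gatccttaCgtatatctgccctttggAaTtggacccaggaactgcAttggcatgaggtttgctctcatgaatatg
Cyp3a41a, chr5:145698197-145698271, minus strand: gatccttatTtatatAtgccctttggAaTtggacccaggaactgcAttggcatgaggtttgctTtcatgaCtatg
Cyp3a25, chr5:145981444-145981518, minus strand: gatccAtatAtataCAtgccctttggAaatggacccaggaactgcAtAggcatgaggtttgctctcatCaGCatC
Cyp3a59, chr5:146109071-146109145, plus strand: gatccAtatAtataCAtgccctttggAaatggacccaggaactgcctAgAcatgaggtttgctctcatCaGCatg
Cyp3a13, chr5:137895243-137895317, minus strand: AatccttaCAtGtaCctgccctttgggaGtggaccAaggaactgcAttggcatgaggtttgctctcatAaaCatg
*Cyp3a16* differed from *Cyp3a11* at 1 position of this stretch and *Cyp3a44* at 4, although the level per kilobase of *Cyp3a11* was 5152 times that of *Cyp3a16* and 3568 times that of *Cyp3a44*. *Cyp3a41a* differed at 7 positions, *Cyp3a59* and *Cyp3a13* at 10 each and *Cyp3a25* at 11. *Cyp3a41b*, which is not shown, had the same 75 bases as *Cyp3a41a*, so a read of this stretch cannot tell these 2 genes apart. The part of misplaced *Cyp3a11* reads in the values of the low members was not tested.

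Over the whole coding sequence the *Cyp3a* members formed 2 groups of close relatives and a single more distant gene. *Cyp3a11*, *Cyp3a16*, *Cyp3a41a* and *Cyp3a44* were 92.4% to 95.8% identical over their 6 pairs. *Cyp3a25* and *Cyp3a59* were 97.5% identical, with 38 mismatches. Between these groups identity was 74.3% to 75.9%, and *Cyp3a13* was 74.7% to 76.5% identical to the other *Cyp3a* members. *Cyp1a1* and *Cyp1a2* were 75.6% identical, with 1 unbroken run of 137 identical bases, and either of them was 46.4% to 48.1% identical to a *Cyp3a* member over 14 pairs.

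Close relatives in sequence were found at both ends of the order of levels. The group with the highest member, *Cyp3a11*, also held the 3 lowest *Cyp3a* members. *Cyp3a57*, which is not a member, was 94.2% identical to *Cyp3a59* and stood low as well, at 5.52 per kilobase. *Cyp3a25* and *Cyp3a59*, the closest pair among the 9 genes, differed 12.7-fold in level per kilobase, or 11.8-fold over windows found in no other gene. *Cyp3a13*, with no close relative, had a level exceeded 3.91-fold by that of *Cyp3a25*. These are descriptions over the 7 members and *Cyp3a57*, genes of 1 subfamily that share ancestry, and no test was made.

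**Figure D4:**
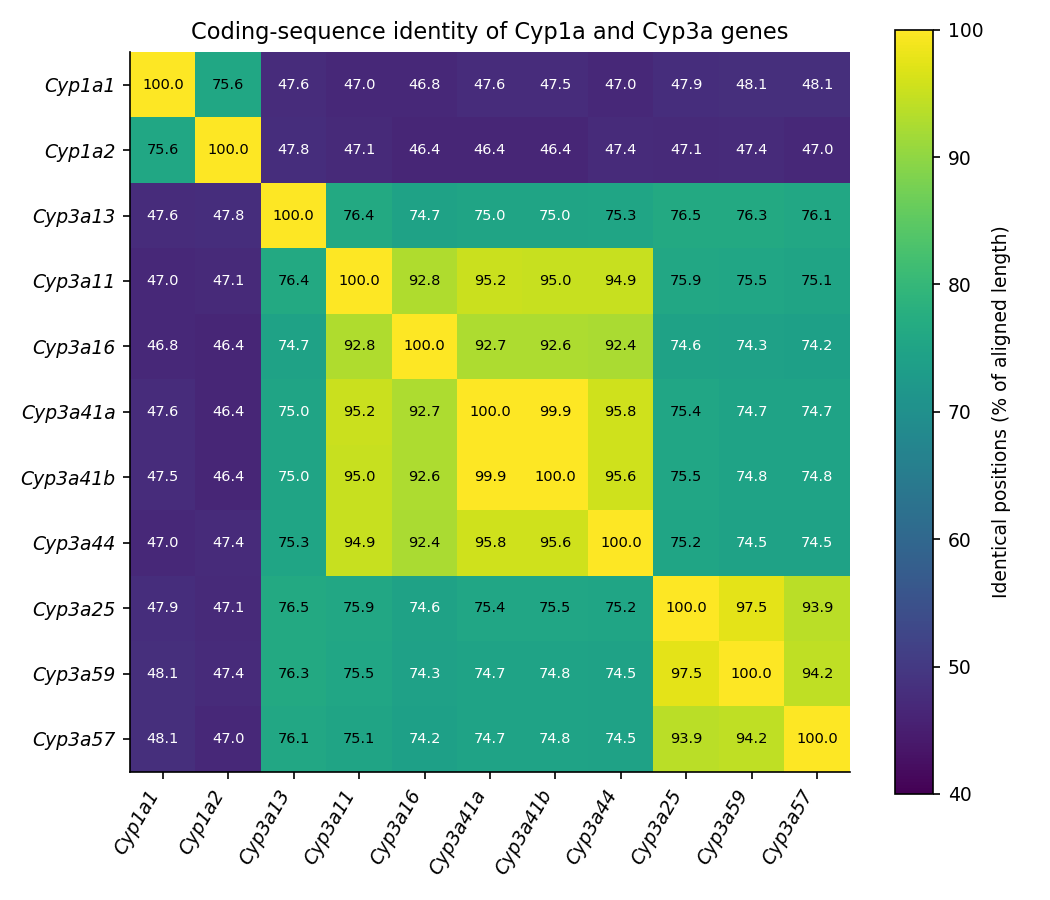
Percent of identical positions in pairwise alignments of the coding sequences of the 9 genes and of *Cyp3a41b* and *Cyp3a57*, from dark (low) to yellow (high). The blocks of close relatives are *Cyp3a11* with *Cyp3a16*, *Cyp3a41a*, *Cyp3a41b* and *Cyp3a44*, and *Cyp3a25* with *Cyp3a59* and *Cyp3a57*, and *Cyp3a13* stays at or below 76.5% with every other gene.

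Of the 7 *Cyp3a* members, 6 lie in 1 cluster on chromosome 5 at chr5:145345279-146113287 (mm10), a span of 768 kb that also holds *Cyp3a57* and *Cyp3a41b*. *Cyp3a16* (chr5:145436309-145469723), *Cyp3a41a* (chr5:145694049-145720136), *Cyp3a44* (chr5:145773983-145805874), *Cyp3a11* (chr5:145854426-145879964) and *Cyp3a25* (chr5:145977194-146009618) are on the minus strand, and *Cyp3a59* (chr5:146079257-146113287) is on the plus strand. The 3 members with high levels, *Cyp3a11*, *Cyp3a25* and *Cyp3a59*, are neighbours at the end of the cluster with the highest coordinates. *Cyp3a57* and *Cyp3a41b*, which are not members, had 10.96 normalized counts and a listed value of 0, respectively, so all 5 genes on the other side of *Cyp3a11* were listed low. The values of *Cyp3a41a* and *Cyp3a41b* are uncertain, since 95.3% and 90.9% of their windows occur in other genes. Over windows found in no other gene *Cyp3a41a* stood at 26.8 per kilobase. *Cyp3a13* (chr5:137892932-137921619, minus strand) stands alone, 7423659 bases from the cluster.

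**Figure D5:**
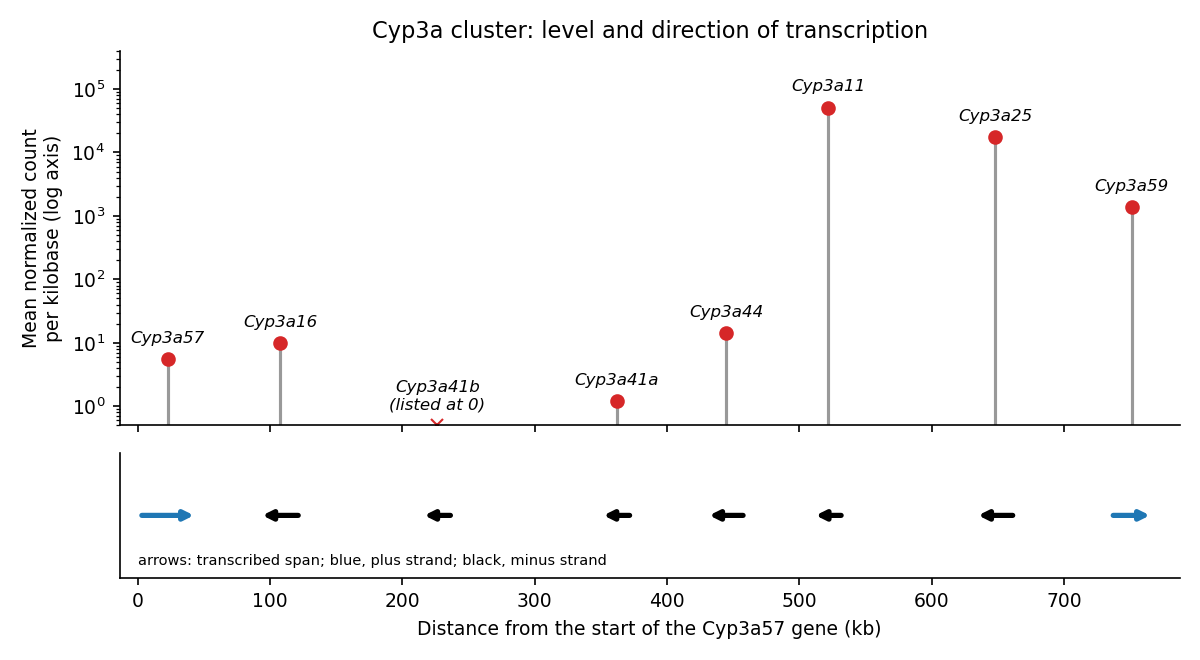
Mean normalized count per kilobase (log axis) of the 8 genes of the *Cyp3a* cluster against the distance in kb from the start of *Cyp3a57*, with arrows below for the transcribed span and strand of each gene. With the longest transcript as length, *Cyp3a11*, *Cyp3a25* and *Cyp3a59* at the right lie at 1360 per kilobase or above. The other genes lie at 14.2 or below, with *Cyp3a41b* listed at 0. The values of *Cyp3a41a* and *Cyp3a41b*, which share most of their windows, are uncertain.

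The 1a pair lies on chromosome 9. *Cyp1a2* (chr9:57676937-57683703, minus strand) and *Cyp1a1* (chr9:57687928-57703824, plus strand) are transcribed away from each other, and their levels per kilobase differed 939-fold. Their start sites are 13.96 kb apart in RefSeq and 4.2 kb apart by the GENCODE spans given here. The *Cyp1a* genes have 7 exons and the *Cyp3a* members 13. No exonic base of any of the 9 genes overlapped an exon of another annotated gene.

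The bases just before the start sites were compared between members of high and low level. Shown are the 60 bases before the RefSeq start (GRCm38.p6) of genes that are alike or neighbours but unequal in level, with the motif TATAA in capitals.
Cyp1a1, chr9:57697553-57697612, plus strand: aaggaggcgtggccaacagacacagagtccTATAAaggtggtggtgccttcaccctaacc
Cyp1a2, chr9:57683656-57683715, minus strand: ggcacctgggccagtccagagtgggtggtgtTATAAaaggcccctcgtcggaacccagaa
Cyp3a11, chr5:145879855-145879914, minus strand: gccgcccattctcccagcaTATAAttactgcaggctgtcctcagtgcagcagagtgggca
Cyp3a16, chr5:145469724-145469783, minus strand: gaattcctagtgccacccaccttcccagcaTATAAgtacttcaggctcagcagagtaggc
Cyp3a44, chr5:145805875-145805934, minus strand: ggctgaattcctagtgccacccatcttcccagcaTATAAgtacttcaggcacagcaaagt
Cyp3a25, chr5:146009619-146009678, minus strand: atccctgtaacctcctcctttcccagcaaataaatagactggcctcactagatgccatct
Cyp3a59, chr5:146079198-146079257, plus strand: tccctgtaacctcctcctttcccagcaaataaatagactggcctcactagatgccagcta
TATAA on the transcribed strand was present in these 60 bases in 6 of the 9 genes, and in 6.00% of 27025 RefSeq promoters (7.59% with TTATA on the other strand counted). The first T lay 30 bases before the start in *Cyp1a1*, 29 in *Cyp1a2*, 41 in *Cyp3a11*, 30 in *Cyp3a16* and 26 in both *Cyp3a41a* and *Cyp3a44*. In *Cyp1a2* a TTATA overlaps it. The RefSeq starts of *Cyp1a1*, *Cyp1a2* and *Cyp3a11* lie inside the GENCODE spans given above, so these distances hold for the RefSeq starts only. *Cyp3a13*, *Cyp3a25* and *Cyp3a59* had no match in this window. Genes with the motif thus stood at both ends of the order of levels.

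In the window of 300 bases from 250 before to 50 after the start, *Cyp3a25* and *Cyp3a59* were 96.3% identical and *Cyp3a16* and *Cyp3a44* 95.3%. Identity was taken over the overlapping part of each aligned pair. *Cyp3a11* was 76.3% identical to *Cyp3a16*, 74.0% to *Cyp3a44* and 73.7% to *Cyp3a41a*, less than in their coding sequences. *Cyp1a1* and *Cyp1a2* were 48.4% identical, within the range of 44.6% to 52.7% found for pairs of a *Cyp1a* with a *Cyp3a* gene. The core letters GCGTG, at which the aryl hydrocarbon receptor and Arnt can bind, or CACGC on the other strand, were present in this window in 1 of the 9 genes, *Cyp1a1*, at position -54 from the start. The share over all promoters was 32.5%, and a match or its lack in so short a window says nothing of binding.

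The pathway that regulates the 1a genes held genes on either side of *Cyp1a1* in level. Of the 11 genes of the aryl hydrocarbon receptor list, 9 had a mean above 10 normalized counts, against 12971 of all 24421 genes. The receptor *Ahr* had a level of 384.8 per kilobase and its partner *Arnt* 314.7 per kilobase, close to the list's median of 304, and the chaperone *Hsp90ab1* was highest with 11507. Other targets of the receptor spread widely, as *Ugt1a6a*, a glucuronosyltransferase, had a level of 415 per kilobase and *Nqo1*, a quinone reductase, 291. *Tiparp* had 69.0 per kilobase, while the receptor's repressor *Ahrr* (0.874) and *Aldh3a1* (0.756) were under 1 on the same scale. *Cyp1a1* was thus not the lowest of the receptor's targets.

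The receptors and liver transcription factors upstream of *Cyp3a* genes were all above 10 normalized counts, 14 of 14, against 12971 of all 24421 genes. Their levels ran from 61.6 to 5587 per kilobase, with a median of 905. *Nr1i2* had a level of 1085 per kilobase, and *Nr1i3* was 2.07 times as high at 2246. Their partner *Rxra* stood at 3357 per kilobase. *Hnf4a*, a factor required for hepatocyte gene expression, was the highest of the list at 5587 per kilobase and *Onecut1* the lowest at 61.6.

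The transcripts of proteins that P450 enzymes depend on lay within the range of the high members or below it. All 5 electron transfer partners had levels of 2123 per kilobase or more, with *Por*, the P450 reductase, at the median of 9750 and *Cyb5a*, cytochrome b5, at 25559. All 9 genes of heme synthesis and breakdown were above 10 normalized counts, against 12971 of all 24421 genes. Their median was 943 per kilobase. *Alas1*, the rate-limiting enzyme of heme synthesis in liver, was highest at 8468, and *Hmox1*, which degrades heme, stood at 377 per kilobase. Of the members, *Cyp3a11* alone exceeded each of these, while *Cyp3a25* lay below *Cyb5a*.

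The low *Cyp3a* members are beside other genes known to differ by sex or age as follows. Of 9 genes known to be higher in male mouse liver, all were above 10 normalized counts, with a median level of 2879 per kilobase. Of 8 genes known to be higher in females, 5 were above 10 normalized counts, with a median of 16.6 per kilobase and values from 1.23 (*Cyp2b13*) to 466 (*Cyp17a1*). The levels of *Cyp3a44* (14.2) and *Cyp3a16* (9.86) lie within that wide female range, and that of *Cyp3a41a* (1.22) just below it. Over windows found in no other gene *Cyp3a41a* stood at 26.8 per kilobase, a value inside the range, which was computed with the longest transcripts. Of 4 fetal liver genes, 3 were above 10 normalized counts, with *Afp*, the fetal counterpart of albumin, at 13.5 per kilobase. The labels give a sex for the WT mice only, while the study's text describes both genotypes as male. The sexes could therefore not be compared, and the part of sex in these levels was not tested.

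Markers of the tissue were checked with the same values. The 7 hepatocyte genes had levels from 23793 to 1059757 per kilobase, and *Alb* was 20.9 times as high as *Cyp3a11*. *Cyp1a2* and *Cyp3a11* are known as genes of hepatocytes near the central vein. The 7 pericentral genes ranged from 55.8 to 187895 per kilobase and the 6 periportal genes from 20.3 to 20064. The lowest periportal value was that of *Ass1*, a urea cycle enzyme abundant in hepatocytes, and the other 5 genes of that list stood at 2821 per kilobase or above, so a gene of high expression in liver was listed about as low as *Cyp3a44*. Markers of other cells were lower, with medians per kilobase of 380 for Kupffer cells, 155 for endothelial cells, 89.4 for stellate cells and 40.3 for cholangiocytes. For the intestine, another site of *Cyp3a* expression, *Fabp2*, which liver also expresses, stood at 3169 per kilobase, but *Cdx2* (0.884) and *Lct* (0.230) were under 1 and *Vil1* was at 14.4. Of the blood markers, *Hba-a1* and *Hbb-bs* were listed at 0, *S100a8* and *S100a9* stood at 111 and 138 per kilobase and *Ly6g* was not in the table. Genes that share most windows with other genes were often listed at 0. The shares of *Hba-a1* and *Hbb-bs* were not looked at, so their values do not show that blood was absent.

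The level of *Cyp3a11* varied with the length used. Its 2 annotated transcripts include 1 that retains an intron and sets the longest length of 2802 bases, while its protein-coding transcript has 2344 bases and the union of its exons 5093. With the protein-coding transcript the level was 60707 per kilobase and with the union 27940. The ratio of *Cyp3a11* to *Cyp3a25* was accordingly 2.93 with the longest transcripts, 3.50 with the longest protein-coding transcripts, 1.68 with exon unions, 4.10 with coding lengths and 1.58 over windows found in no other gene. *Cyp3a11* was the higher of the pair with each of these lengths.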

How the data were processed

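RNA-seq reads of 75 bases, single-end, came from liver of 3 WT and 3 *Pai-1*+/- mice. The authors aligned them to mm10 with STAR and compared genotypes with DESeq2 in RNA Express. Annotation, strand setting, versions and the treatment of reads with several matches are not given in the sources used here. The signal used is the deposited mean of normalized counts over all libraries, computed by the authors, with both genotypes pooled. The 6 per-sample columns of the whole-number table match no sample label and were not used. The deposited columns of the authors' comparison, which hold fold changes, standard errors, statistics, p-values and calls, were not used either. The planned test of genotype could therefore not be run, and depth per library and the spread between mice were not computed. The level of the targeted gene is not reported here.

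Symbols were matched to GENCODE M21 on GRCm38. Of 24421 genes, 23334 (95.5%) matched 1 gene, and these held 97.5% of the mean counts. The mean was divided by the longest transcript in kilobases. Alternatives were the exon union, the coding length, the longest protein-coding transcript (chosen after seeing the data), no length and the windows found in no other gene. Windows of 75 or 50 bases were compared between all annotated transcripts. Coding sequences without the stop codon and RefSeq promoters were aligned globally in pairs, and identity was taken over the aligned length. For promoters, gaps at the ends were free and end overhangs were left out. The aligned length with gaps ran from 241 (*Cyp1a1* with *Cyp3a13*) to 333 positions (*Cyp1a2* with *Cyp3a25*). Window and identity calculations were tested on simulated data.

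The genes named are the 9 members, other rows whose symbols start with Cyp1a, Cyp1b or Cyp3a, and fixed lists. The gene lists are aryl hydrocarbon receptor pathway, xenobiotic receptors and liver factors, electron transfer partners, heme synthesis and breakdown, male-biased, female-biased and fetal liver. The marker lists are for hepatocytes, pericentral and periportal hepatocytes, Kupffer, endothelial and stellate cells, cholangiocytes, intestine and blood. *Cyp2e1* and *Cyp4a14* are also named for their ranks, after their values were seen. The members and lists were chosen with earlier results of these data known. Python 3.11.15, pandas 2.3.3, NumPy 2.4.6, SciPy 1.17.1, Biopython 1.88 and Matplotlib 3.10.9 were used.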

Additional observations from a re-analysis of the deposited data

How the results depend on the processing

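The order of the 9 genes by level per kilobase was the same with the exon union and with the longest protein-coding transcript, an alternative chosen after seeing the data. With the coding length, *Cyp1a1* moved to place 7 and *Cyp3a16* to place 8, and the same places, 7 and 8, were found without correction for length. With the length over windows found in no other gene, *Cyp3a41a* moved to place 6, *Cyp3a44* to 7, *Cyp3a16* to 8 and *Cyp1a1* to 9. When only genes with a mean above 10 normalized counts were ranked, the percent of genes below was 8.11 for *Cyp1a1*, 10.8 for *Cyp3a16*, 14.5 for *Cyp3a44*, 90.9 for *Cyp3a59*, 96.9 for *Cyp3a13*, 98.1 for *Cyp1a2* and 99.2 for *Cyp3a25*, and *Cyp3a41a* had no value because the limit removed it. With windows of 50 bases the percent found in other genes was 3.43 for *Cyp1a1*, 4.79 for *Cyp1a2*, 6.73 for *Cyp3a11*, 10.7 for *Cyp3a16*, 26.5 for *Cyp3a44*, 26.8 for *Cyp3a25*, 30.02 for *Cyp3a59* and 98.6 for *Cyp3a41a*, since shorter windows match more easily by construction. Matching on both strands changed none of the 9 shares.

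No paired analysis was possible because the per-sample columns carry no sample label or replicate number. Because the per-sample columns match no sample label, the alternatives planned for the genotype comparison were not run. They were another tool, no filter on low counts, the replicate block and leaving out each mouse. A low mean such as that of *Cyp3a41a* is given without an interval, as the counts and depth behind it were not used.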
